A study of Homo sapiens with 6 samples.

Results

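Cyclic AMP and cyclic GMP are small second messengers. Adenylyl and guanylyl cyclases make them from ATP and GTP, cyclic nucleotide phosphodiesterases hydrolyse them, and protein kinase A (PKA), protein kinase G and the EPAC exchange factors carry their signal, with the transcription factor CREB1 as a classic nuclear target of PKA. In thyroid follicular cells, thyrotropin acts mainly through the G protein Gs, adenylyl cyclase and cyclic AMP to drive growth and hormone production. A set of 44 genes of this system was described here in RNA-seq libraries of TPC1, a cell line from a human papillary thyroid carcinoma. The 44 symbols were chosen by family name, with the read counts of these same libraries already known, so the calls and fold changes of the members below are a description and support nothing further.

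The compared groups were TPC1 cells that overexpress TFCP2L1, labelled with the genotype TFCP2L1 OE, and TPC1 cells with a vector, labelled WT, with 3 libraries each. TFCP2L1 is a DNA-binding protein of the grainyhead and CP2 family of transcription factors. All 6 libraries come from the 1 cell line, and the labels give no promoter for the transgene and no treatment. Nothing in the labels says whether replicates came from separate cultures, so the p-values rest on the spread between libraries, part or all of which may be technical. The 3 TFCP2L1 libraries held 38213520 to 38987434 reads and the 3 vector libraries 37928516 to 38249193. TFCP2L1 itself had 13578, 13885 and 12333 reads in TFCP2L1 libraries, against 0, 0 and 1 in vector libraries. Of 10 thyroid markers, 7 were in the count table and 5 were tested. None of the 5 had an edgeR adjusted p under 0.05. The lineage factor PAX8 averaged 478 CPM in TFCP2L1 cells and 544 CPM in vector cells, and FOXE1 averaged 14.0 and 17.5 CPM. Thyroglobulin (TG) averaged 1.03 CPM in TFCP2L1 cells and 1.10 CPM in vector cells. In the other direction, HHEX averaged 8.53 CPM in TFCP2L1 cells and 7.15 CPM in vector cells, and SLC26A4 averaged 0.591 and 0.467 CPM. The mitochondrially encoded share of reads was 5.19%, 5.80% and 7.59% in TFCP2L1 libraries and 5.14%, 6.72% and 5.13% in vector libraries.

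Of the 44 genes, 36 were among the 21173 genes of the count table. The other 8 were not analysed here: PDE1B, PDE1C, PDE4B, PDE6B, PDE9A, ADCY2, ADCY4 and PRKG2. A filter on low counts kept 14431 genes for testing, 29 members among them, and 7 members with few reads are given at the end. CPM below are read counts scaled to a common library size with TMM, and serve to compare libraries. FPKM are the deposited values per gene length, and serve to compare genes. They rest on a fixed length for each gene, so the order of genes can differ from that by CPM. In vector cells PDE10A was above PDE7A in CPM (39.9 against 28.8) but below it in FPKM (2.46 against 3.63). A gene was called at an adjusted p under 0.05 in the edgeR fit across all tested genes, and an SE is that of the log2 fold change of TFCP2L1 over vector cells.

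The windows before a start site of 4 of the 5 called members are shown first, and that of PDE6D is not shown. Binding of TFCP2L1 to these windows was not tested. PDE10A and ADCY1 have 2 annotated starts each and PDE4A has 5, and 1 window of each gene is shown. They are RefSeq sequences of GRCh38.p14, written 5′ to 3′ on the gene's strand and ending at an annotated start. Left off are 31 bases for PDE2A and 4 for PDE10A that GENCODE gives to a 5′ UTR. The PDE2A window still lies partly, and that of PDE10A wholly, within the GENCODE gene, whose 5′ end is further upstream. The PDE2A window is chr11:72674454-72674672 (minus strand, 219 bases), that of ADCY1 chr7:45573890-45574139 (plus strand), that of PDE10A chr6:165663246-165663491 (minus strand, 246 bases) and that of PDE4A chr19:10416523-10416772 (plus strand). Capitals mark TGACG on either strand, the core of the cyclic AMP response element bound by CREB1.

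PDE2A: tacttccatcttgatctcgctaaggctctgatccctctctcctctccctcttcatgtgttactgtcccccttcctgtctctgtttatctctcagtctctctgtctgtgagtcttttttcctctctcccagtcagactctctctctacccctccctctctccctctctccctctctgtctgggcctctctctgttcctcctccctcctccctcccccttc
ADCY1: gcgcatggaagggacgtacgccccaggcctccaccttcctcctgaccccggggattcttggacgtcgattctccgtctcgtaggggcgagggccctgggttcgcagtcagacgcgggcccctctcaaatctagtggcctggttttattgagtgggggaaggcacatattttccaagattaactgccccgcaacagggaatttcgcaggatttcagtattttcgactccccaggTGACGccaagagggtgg
PDE10A: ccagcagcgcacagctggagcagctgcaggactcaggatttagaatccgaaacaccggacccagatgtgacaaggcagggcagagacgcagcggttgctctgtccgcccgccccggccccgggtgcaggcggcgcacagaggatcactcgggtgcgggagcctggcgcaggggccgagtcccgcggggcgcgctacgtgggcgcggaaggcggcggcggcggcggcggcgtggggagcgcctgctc
PDE4A: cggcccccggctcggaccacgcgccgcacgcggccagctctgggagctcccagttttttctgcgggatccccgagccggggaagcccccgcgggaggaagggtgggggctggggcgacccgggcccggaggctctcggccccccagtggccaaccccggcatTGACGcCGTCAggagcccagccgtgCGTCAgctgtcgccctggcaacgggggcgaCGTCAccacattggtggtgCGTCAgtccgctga

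The 4 windows differ plainly in composition. Over the full 250 bases of each, that of PDE2A had 54% G and C, 1 CpG and long runs of C and T. The ADCY1 window had 58.4% G and C with 16 CpG, the PDE10A window 73.6% with 31 CpG, and the PDE4A window 74% with 28 CpG. The ADCY1 window that is not shown had 75.6% with 36 CpG. Over 16360 windows of tested genes the median was 64.4%, with the middle 50% between 55.6% and 71.6%. The PDE4A window shown held 5 matches of TGACG, which begin 88, 82, 63, 33 and 14 bases before the start, the first on the gene's strand and the rest on the other. The other 4 PDE4A windows held none. The ADCY1 window shown held 1 match, 17 bases before its start. The other ADCY1 window overlaps it and held the same match, 245 bases before its own start. PDE6D, not shown, held a match 125 bases before its start. Neither PDE2A nor PDE10A held one in any window.

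Motifs were searched on both strands of the 250 bases before each annotated start, for 31 of the 36 members (86 windows, since a gene can have several starts). TGACG was found in 13 of the 86 member windows, in 21.2% of all 35116 windows and in 26.8% of the 16360 windows of tested genes. Of those 13, 2 are overlapping ADCY1 windows that share a match. The full element TGACGTCA, which contains TGACG on both strands, was found in 2 of 86, for PDE7B and PRKAR1A. It was in 1.65% of all windows and in 2.30% of those of tested genes. A CCAG followed 6 bases later by a second CCAG, the paired form of CP2-family sites, was found in 6 of 86 member windows. It was in 3.27% of all windows and in 3.15% of those of tested genes. Those 6 belong to CREB1, PDE5A, PDE11A, PRKACB, PRKAR1B and RAPGEF4, none of which was called. A match is a description of these letters, and gene-level counts do not say which start is used in TPC1 cells.

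Among the 29 tested members, 2 were called higher in TFCP2L1 cells, PDE2A and ADCY1, and 3 were called lower, PDE10A, PDE4A and PDE6D. Of all tested genes, 4.63% were called higher and 6.94% lower, or 11.6% in either direction. The other 24 members, among them every tested PKA subunit, soluble guanylyl cyclase subunit and EPAC factor, were not called. The log2 fold changes of the 29 had a median of -0.08, with 13 above and 16 below 0, and the median of all tested genes was 0.00. Their median size without sign was 0.23, against 0.16 for all tested genes. In 12 members the 3 TFCP2L1 libraries lay all above (6) or all below (6) the 3 vector libraries, and this held for 30% of all tested genes. In bulk RNA, a change in the number of cells with a transcript and a change in its amount per cell cannot be told apart.

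**Figure D1:**
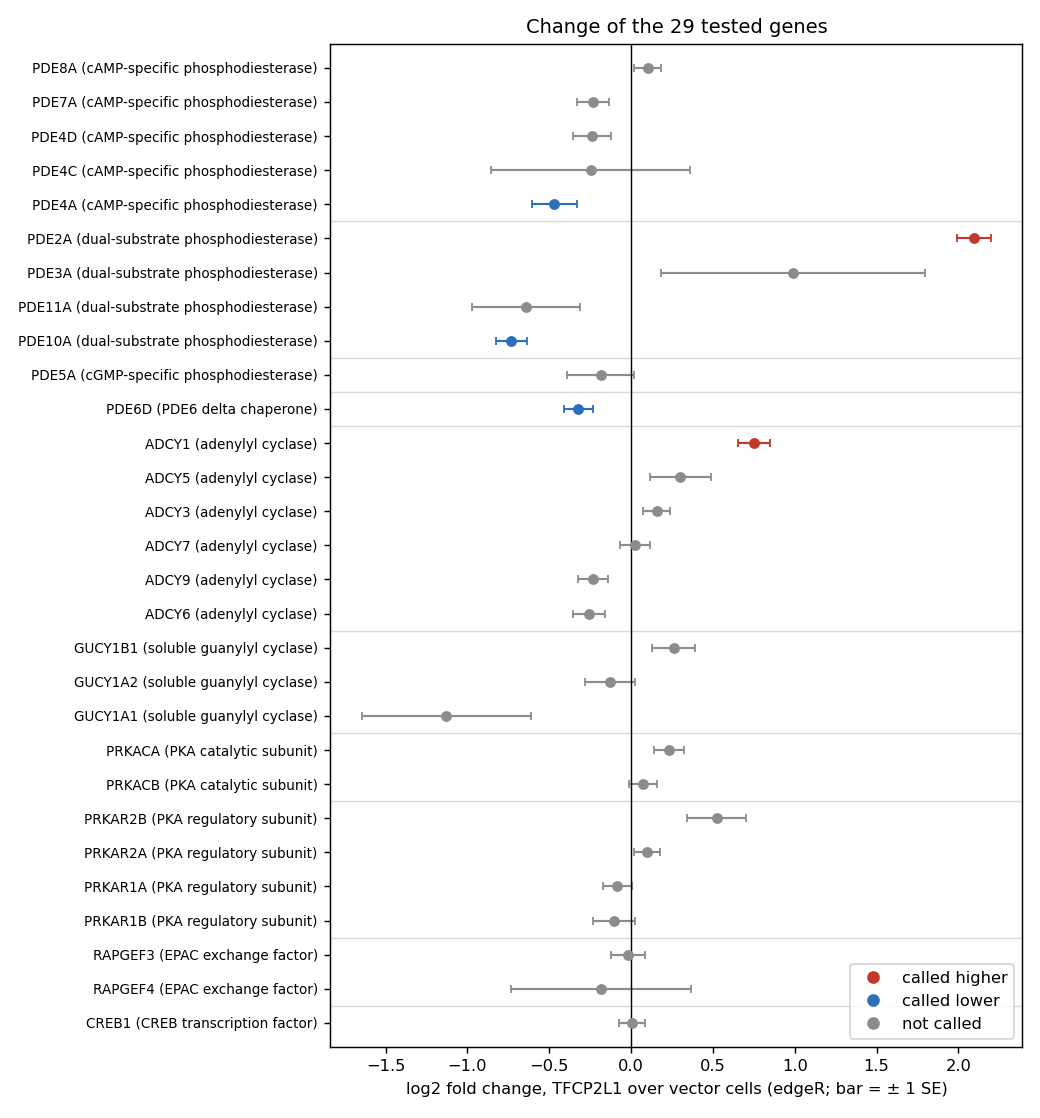
Log2 fold change of TFCP2L1 over vector cells (horizontal axis) for the 29 tested genes, grouped by role, with bars of 1 SE. PDE2A stands at 2.10, ADCY1 at 0.75 and PDE10A at -0.73, while most of the PKA, EPAC and CREB1 points lie near 0.

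Among the 29 tested members PDE2A showed the largest change. It encodes a phosphodiesterase that hydrolyses both cyclic AMP and cyclic GMP and is activated by cyclic GMP binding to its regulatory GAF domain. The gene lies at chr11:72576141-72674591 on the minus strand (GENCODE v29, GRCh38). It had 1548, 1570 and 1491 reads in TFCP2L1 libraries, against 339, 326 and 382 reads in vector libraries. The groups were far apart and the libraries within each close together, at 39.5 ± 0.578 CPM in TFCP2L1 cells and 9.24 ± 0.735 CPM in vector cells (SD, n = 3 each). The fold was 4.28, a log2 fold change of 2.10 with an SE of 0.10. Antisense genes overlap 3.94% of its exon bases, and the strand setting of libraries and counting was not given.

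PDE2A is also known from endothelial cells, so endothelial markers are given beside it. Of 4 markers, 3 were in the table, and their summed level was 0.887 to 1.199 CPM in TFCP2L1 libraries and 0.796 to 1.25 CPM in vector libraries, which overlap. Most of these reads were of PECAM1, which was not called (log2 fold change 0.33, SE 0.39). KDR went the other way, with 6, 1 and 0 reads in TFCP2L1 libraries and 12, 9 and 3 in vector libraries. VWF had 2, 0 and 0 reads in TFCP2L1 libraries and 0, 0 and 6 in vector libraries. Neighbours on the chromosome were looked up after the calls were known. Of the 2 tested genes on either side of PDE2A, CLPB, LINC01537, ARAP1 and STARD10, none was called, with log2 fold changes of 0.10 to 0.64. The highest of them was LINC01537, whose nearest end lies 2.91 kb from PDE2A and which averaged 2.93 ± 0.461 CPM in TFCP2L1 cells and 1.88 ± 0.250 CPM in vector cells (SD, n = 3 each).

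Of the remaining dual-substrate enzymes only PDE10A was called. PDE10A, a phosphodiesterase best known from the striatum of the brain, had 936, 1012 and 853 reads in TFCP2L1 libraries, against 1541, 1423 and 1558 in vector libraries. Every TFCP2L1 library was below every vector library, and the log2 fold change was -0.73 with an SE of 0.09. Of its 4 tested neighbours only the noncoding RNA gene CAHM, 1913 kb away, was called, with 0.154 ± 0.0672 CPM in TFCP2L1 cells and 0.644 ± 0.0533 CPM in vector cells (SD, n = 3 each). PDE11A had 51, 34 and 37 reads in TFCP2L1 libraries and 61, 49 and 75 in vector libraries, and its groups overlapped (log2 fold change -0.64, SE 0.33). PDE3A, an enzyme inhibited by cyclic GMP, had 10, 11 and 10 reads in TFCP2L1 libraries and 10, 0 and 5 in vector libraries. At this depth no difference of PDE3A was detectable.

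Of the cyclic AMP-specific enzymes, PDE4A was the only one of 5 tested that was called. PDE4 enzymes are the targets of rolipram and related drugs. PDE4A had 247, 247 and 245 reads in TFCP2L1 libraries, against 317, 351 and 327 in vector libraries, or 6.34 ± 0.0478 CPM in TFCP2L1 cells and 8.79 ± 0.472 CPM in vector cells (SD, n = 3 each). The groups did not overlap and the log2 fold change was -0.47 with an SE of 0.14. The call rests on all 6 libraries: without any 1 of them the edgeR adjusted p was 0.0544 to 0.127.

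PDE4D and PDE7A shared the direction of PDE4A without being called. PDE4D, its paralog, had 12.3, 14.03 and 12.996 CPM in TFCP2L1 libraries, against 14.16, 17.04 and 15.2 CPM in vector libraries (log2 fold change -0.24, SE 0.12). PDE7A had 24.6, 24.6 and 24.5 CPM in TFCP2L1 libraries, against 29.7, 26.0 and 30.8 CPM in vector libraries (log2 fold change -0.23, SE 0.10). In both genes the groups did not overlap, though for PDE4D only narrowly. PDE8A, an enzyme insensitive to the general inhibitor IBMX, had 53.7, 57.8 and 55.7 CPM in TFCP2L1 libraries and 47.5, 55.3 and 53.0 CPM in vector libraries, which overlap. PDE4C had 44 reads over the TFCP2L1 libraries and 51 over the vector libraries. Of its exon bases 70.7% are shared with another annotated gene on the same strand, AC008397.2, so its counts are uncertain.

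Among cyclic GMP-specific enzymes only PDE5A, the target of sildenafil, could be tested. It had 6.53, 9.41 and 4.83 CPM in TFCP2L1 libraries and 7.73, 6.98 and 8.91 CPM in vector libraries. The spread within TFCP2L1 cells covered all 3 vector values, and the log2 fold change was -0.18 with an SE of 0.20. PDE6D, in contrast, is no enzyme: named for the photoreceptor phosphodiesterase, its product is a chaperone that carries prenylated proteins such as RAS between membranes. It had 1175, 1136 and 1068 reads in TFCP2L1 libraries, against 1420, 1358 and 1329 in vector libraries. The groups did not overlap, and the log2 fold change was -0.32 with an SE of 0.09. None of the 4 tested neighbours of PDE4A or of PDE6D was called. The call of PDE6D was lost without TFCP2L1 replicate 3 (edgeR adjusted p 0.0512) and without vector replicate 1 (0.133), 2 (0.0696) or 3 (0.0768).

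**Figure D2:**
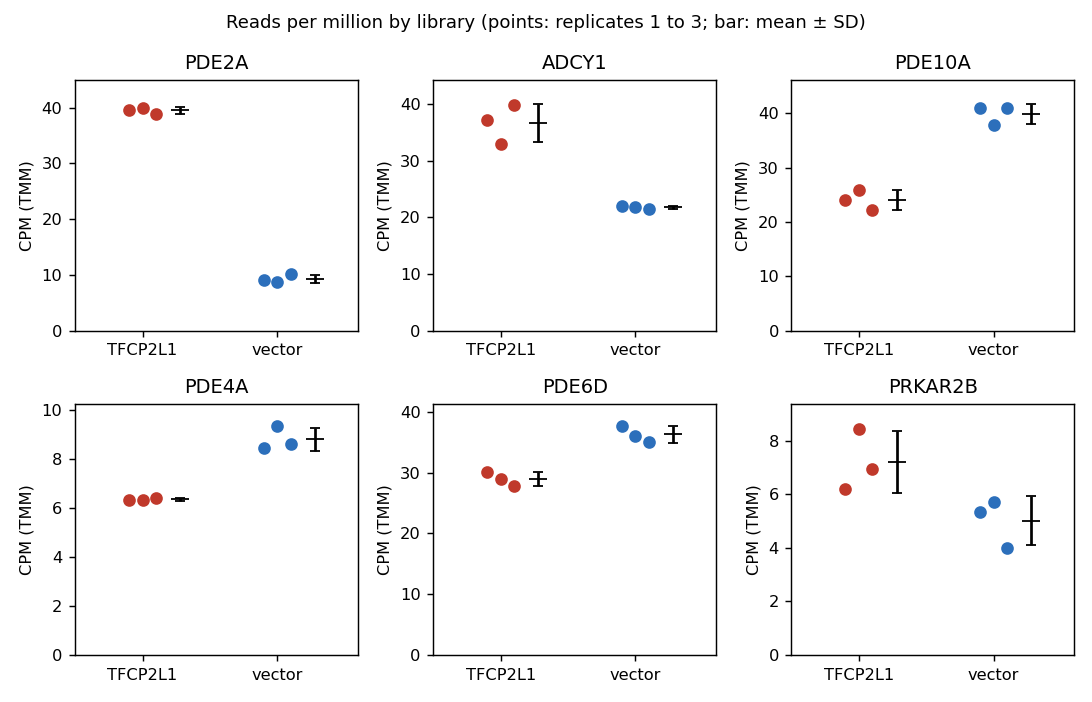
CPM after TMM scaling (vertical axes, from 0) in the 3 TFCP2L1 and 3 vector libraries for the 5 called members and PRKAR2B, with mean and SD beside the points. The groups do not overlap in any of the 6 panels, and the gap is widest in PDE2A.

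Summed per gene length, PDE2A took a larger share of the phosphodiesterase enzymes in TFCP2L1 cells, and PDE10A, the other main dual-substrate gene, a smaller one. The 14 enzymes found came to 25.49, 26.48 and 24.96 FPKM in TFCP2L1 libraries, against 19.7, 20.4 and 21.4 FPKM in vector libraries. PDE2A took 32.5% ± 0.674 of that sum in TFCP2L1 cells and 9.33% ± 0.534 in vector cells, and PDE10A took 5.88% ± 0.279 in TFCP2L1 cells and 12.0% ± 0.751 in vector cells (SD, n = 3 each). Together the dual-substrate genes took 38.8% ± 0.724 in TFCP2L1 cells and 22.2% ± 1.31 in vector cells.

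The cyclic AMP-specific genes took 57.6% ± 1.06 of the sum in TFCP2L1 cells and 72.8% ± 1.77 in vector cells. Their own sum was 14.8 ± 0.306 FPKM in TFCP2L1 cells and 14.9 ± 0.704 FPKM in vector cells, so the lower share stood beside a near-equal level. PDE8A was the highest enzyme in every library, with 9.83 ± 0.305 FPKM in TFCP2L1 cells and 8.997 ± 0.668 FPKM in vector cells. PDE2A, at 8.32 ± 0.159 FPKM, came next to it in TFCP2L1 cells, whereas in vector cells PDE7A and PDE10A lay between them.

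**Figure D3:**
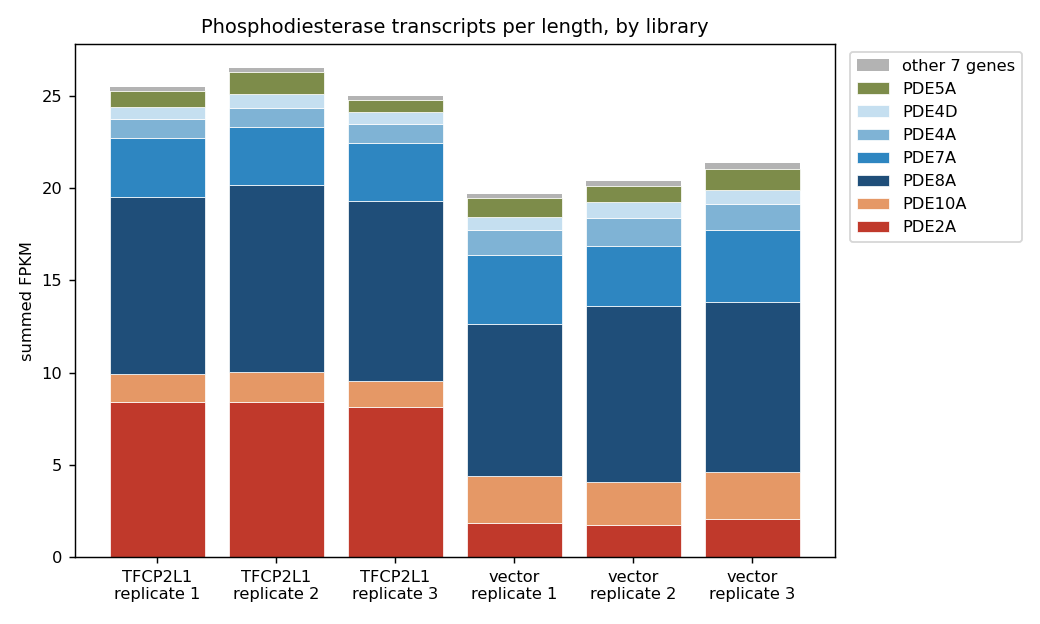
Summed FPKM of the phosphodiesterase enzymes in each library, stacked by gene. The PDE2A block reaches 8.14 to 8.43 FPKM in TFCP2L1 libraries and 1.78 to 2.09 FPKM in vector libraries, while the PDE8A block stays the largest.

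Adenylyl cyclases include the calcium-stimulated forms ADCY1, ADCY3 and ADCY8, the calcium-inhibited forms ADCY5 and ADCY6, and ADCY7 and ADCY9. Only ADCY1, a form stimulated by calmodulin and best known from neurons, was called. It had 1456, 1295 and 1525 reads in TFCP2L1 libraries, against 829, 823 and 816 in vector libraries. The vector libraries were nearly equal, the TFCP2L1 libraries more spread and all above them, and the log2 fold change was 0.75 with an SE of 0.10. No annotated gene overlaps its exons. Of its 4 tested neighbours, IGFBP3 was called higher (log2 fold change 0.47, SE 0.08) and TNS3 lower (-0.44, SE 0.08), at 189 and 1552 kb, and CCM2 and TBRG4 were not called.

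ADCY3, ADCY6, ADCY7 and ADCY9 had the highest FPKM of the cyclases and were not called. ADCY7 had 10.7 ± 1.009 FPKM in TFCP2L1 cells and 10.3 ± 1.12 FPKM in vector cells (SD, n = 3 each), but 41.6% of its exon bases overlap BRD7 on the other strand. ADCY3 had 52.1, 46.6 and 48.3 CPM in TFCP2L1 libraries, against 43.9, 46.0 and 42.0 CPM in vector libraries, with all TFCP2L1 values above (log2 fold change 0.16, SE 0.08). Antisense genes overlap 26.0% of its exon bases.

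ADCY9 was on the other side, with 31.9, 30.6 and 33.1 CPM in TFCP2L1 libraries, against 34.7, 40.3 and 37.4 CPM in vector libraries. ADCY6 had 51.4, 42.1 and 40.6 CPM in TFCP2L1 libraries and 57.0, 50.7 and 52.3 CPM in vector libraries, and TFCP2L1 replicate 1 lay within the vector range. Without that library ADCY6 was called lower (edgeR adjusted p 0.0311), against 0.108 with all 6. ADCY5 was low, with 0.548 ± 0.0842 FPKM in TFCP2L1 cells and 0.437 ± 0.0351 FPKM in vector cells.

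The cyclases together came to 32.7 ± 2.32 FPKM in TFCP2L1 cells and 31.6 ± 0.756 FPKM in vector cells (SD, n = 3 each), a difference within the spread of TFCP2L1 libraries. ADCY1 took 8.66% ± 0.9497 of this sum in TFCP2L1 cells and 5.22% ± 0.157 in vector cells. The ratio of summed phosphodiesterase to summed cyclase FPKM was 0.720, 0.839 and 0.799 in TFCP2L1 libraries, against 0.625, 0.659 and 0.660 in vector libraries. All 3 TFCP2L1 ratios were higher. This is a ratio of transcript levels, not of enzyme activity.

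Soluble guanylyl cyclase, the receptor of nitric oxide, is a dimer of an alpha and a beta subunit. The beta subunit GUCY1B1 had 10.1, 11.9 and 9.99 CPM in TFCP2L1 libraries, against 8.45, 9.66 and 8.64 CPM in vector libraries, with no overlap (log2 fold change 0.26, SE 0.13). The alpha subunit GUCY1A2 had 6.61, 7.04 and 5.82 CPM in TFCP2L1 libraries and 6.61, 7.83 and 6.83 CPM in vector libraries, which overlap. The other alpha subunit, GUCY1A1, had 9, 10 and 17 reads in TFCP2L1 libraries and 30, 31 and 16 in vector libraries, and vector replicate 3 lay below TFCP2L1 replicate 3.

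Per length GUCY1B1 stood at 2.50 ± 0.244 FPKM in TFCP2L1 cells and 2.05 ± 0.140 FPKM in vector cells, above both alpha subunits. GUCY1A2 had 0.403 ± 0.0395 FPKM in TFCP2L1 cells and 0.432 ± 0.0375 FPKM in vector cells (SD, n = 3 each). None of the 3 subunits was called.

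PKA is a tetramer in which regulatory subunits hold catalytic subunits inactive until cyclic AMP binds. PRKAR1A, the regulatory subunit mutated in Carney complex, was the highest of all members, with 47.4 ± 5.34 FPKM in TFCP2L1 cells and 49.3 ± 3.76 FPKM in vector cells (SD, n = 3 each). It made up 72.9% ± 2.71 of the summed regulatory FPKM in TFCP2L1 cells and 75.1% ± 2.11 in vector cells. PRKAR1B and PRKAR2A had overlapping groups, with log2 fold changes of -0.11 (SE 0.13) and 0.10 (SE 0.08).

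PRKAR2B, a type II regulatory subunit, came nearest to a call. It had 242, 331 and 266 reads in TFCP2L1 libraries, against 201, 215 and 151 in vector libraries. All TFCP2L1 libraries were above the vector libraries, at 7.19 ± 1.14 CPM in TFCP2L1 cells and 5.01 ± 0.910 CPM in vector cells (SD, n = 3 each). The log2 fold change was 0.52 with an SE of 0.18, and the edgeR adjusted p was 0.0737, or 0.0345 where no filter on low counts was used.

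Of the catalytic subunits, PRKACA had 64.5, 68.0 and 81.1 CPM in TFCP2L1 libraries, against 58.1, 62.5 and 61.3 CPM in vector libraries. All TFCP2L1 values were above, TFCP2L1 replicate 3 most of all, and the log2 fold change was 0.23 with an SE of 0.09. PRKACB had 49.4 ± 4.03 CPM in TFCP2L1 cells and 47.0 ± 1.72 CPM in vector cells, with overlap. The ratio of regulatory to catalytic FPKM was 2.46, 2.54 and 1.91 in TFCP2L1 libraries and 2.79, 2.50 and 2.75 in vector libraries, so TFCP2L1 replicate 3 stood lowest and the groups overlapped.

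RAPGEF3 (EPAC1), which activates the small GTPase RAP1 on binding cyclic AMP, had 22.2 ± 2.02 CPM in TFCP2L1 cells and 22.5 ± 0.791 CPM in vector cells (SD, n = 3 each). Antisense genes overlap 15.9% of its exon bases. RAPGEF4 (EPAC2) was low and uneven, with 11, 51 and 15 reads in TFCP2L1 libraries and 19, 31 and 35 in vector libraries. CREB1 had 66.9, 73.3 and 67.2 CPM in TFCP2L1 libraries and 67.3, 66.2 and 73.3 CPM in vector libraries, and its log2 fold change was 0.00 with an SE of 0.08. For PRKACB, RAPGEF3 and CREB1 the difference was smaller than the spread within a group.

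Ordered by FPKM, both groups were led by PRKAR1A. PRKACA (20.9 ± 2.43) and PDE6D (17.5 ± 0.813) followed in TFCP2L1 cells, and PDE6D (21.5 ± 0.817) and PRKACA (17.5 ± 0.608) in vector cells. In vector cells the ranges of these 3 did not overlap each other or the next gene. ADCY7, PRKAR2A, PDE8A and ADCY3 came next, from 10.3 to 7.95 FPKM in vector cells, and each overlapped its neighbour in that order. Also overlapping as neighbours in vector cells were PRKACB and ADCY6, CREB1 and PRKAR1B, RAPGEF3 and PDE10A, GUCY1B1 and PDE2A, ADCY5 and GUCY1A2, and PDE4A, PRKAR2B and PDE5A in a row. Among all genes in the table, PRKAR1A lay at percentile 94.7 and PDE2A at 54.0 in vector cells.

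**Figure D4:**
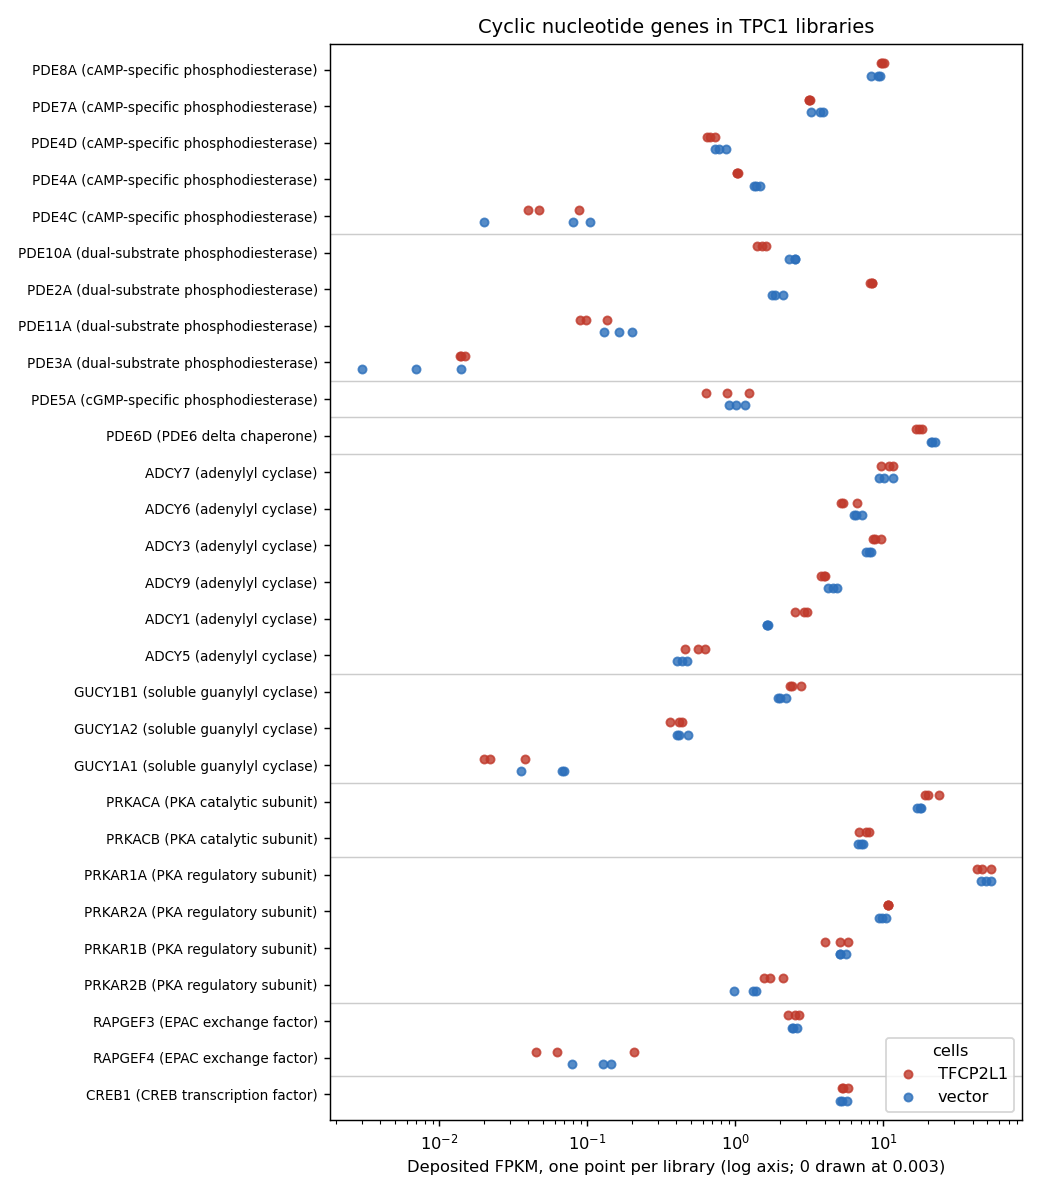
Deposited FPKM (log axis, values of 0 drawn at 0.003) of the 29 tested genes, with 1 point per library and TFCP2L1 libraries drawn above vector libraries. PRKAR1A is highest in both groups, and PDE2A moves to 8.32 FPKM in TFCP2L1 cells, against 1.91 FPKM in vector cells.

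The 7 members under the filter had few reads in all, and their ratios cover counting error only. PDE7B had 9, 3 and 3 reads in TFCP2L1 libraries and 1, 1 and 0 in vector libraries, a ratio of 7.42 after scaling to library size (exact 95% interval 1.73 to 66.9). ADCY10, the soluble adenylyl cyclase, had 4 reads over the TFCP2L1 libraries and 12 over the vector libraries (ratio 0.330, interval 0.0776 to 1.09). ADCY8 had 0 reads over the TFCP2L1 libraries and 10 over the vector libraries. In an edgeR fit with no filter on low counts, none of the 7 was called, with adjusted p-values of 0.149 to 0.996.

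PRKG1, the protein kinase G gene in the table, had 10 reads over the TFCP2L1 libraries and 4 over the vector libraries. PDE1A had 4 reads over the TFCP2L1 libraries and 4 over the vector libraries. PDE8B had 0 reads over the TFCP2L1 libraries and 4 over the vector libraries, and PDE3B had 1 in TFCP2L1 libraries and 0 in vector libraries. At these counts a difference was not detectable.

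The other genes of the pathway were read from 7 lists, which were also made with earlier results of these data known. Their counts stand beside 4.63% of all tested genes called higher and 6.94% called lower, or 11.6% in either direction. No list was tested against these shares. In the list of G proteins and receptors that act on adenylyl cyclase, 1 of 20 tested genes was called higher and 4 lower, with a median log2 fold change of -0.07. The lower ones included PTGIR, the Gs-coupled prostacyclin receptor, at 0.538, 0.153 and 0.157 CPM in TFCP2L1 libraries, against 1.22, 2.07 and 1.24 CPM in vector libraries (log2 fold change -2.40, SE 0.51). GPR161, a Gs-coupled receptor of primary cilia, averaged 41.1 CPM in TFCP2L1 cells and 57.4 CPM in vector cells (log2 fold change -0.48, SE 0.08). LPAR1, a lysophosphatidic acid receptor, was at -0.43 (SE 0.13).

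GNAS, the gene of Gs alpha, and RGS2 were outside the naming rule and were named after their values were seen. GNAS had 742, 824 and 694 CPM in TFCP2L1 libraries, against 941, 861 and 903 CPM in vector libraries, all lower (log2 fold change -0.26, SE 0.08). RGS2, a regulator of G protein signalling, was called higher (log2 fold change 0.38, SE 0.10). The calls of GNAS, LPAR1 and RGS2 did not all hold without 1 library: GNAS lost it without each library except TFCP2L1 replicate 2, LPAR1 without TFCP2L1 or vector replicate 1 or 2, and RGS2 without TFCP2L1 replicate 1 or any vector library (edgeR adjusted p up to 0.221, 0.178 and 0.0972). GNAS also lost its call with RLE scaling or library totals in place of TMM, in both FPKM fits and with a replicate block. LPAR1 lost its call with library totals, limma-voom, both FPKM fits and the block, and RGS2 with the block. The thyrotropin receptor TSHR was not analysed here.

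Of other guanylyl cyclases and their inputs, 5 genes were tested, and only NPR2, the receptor of C-type natriuretic peptide, was called; their median log2 fold change was 0.68, the value of NPR2 itself. NPR2 had 3.36, 3.65 and 3.60 CPM in TFCP2L1 libraries, against 2.15, 2.42 and 2.03 CPM in vector libraries (log2 fold change 0.68, SE 0.21). Its call was lost without any 1 library (edgeR adjusted p 0.0667 to 0.159). The clearance receptor NPR3 had 0.845, 2.04 and 1.93 CPM in TFCP2L1 libraries and 0.558, 0.982 and 0.369 CPM in vector libraries, which overlap. It averaged 1.61 CPM in TFCP2L1 cells and 0.636 CPM in vector cells and missed the call (log2 fold change 1.33, SE 0.44, edgeR adjusted p 0.0647).

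Anchors and inhibitors of PKA had 2 called higher and 1 lower of 21 tested, with a median log2 fold change of 0.06. AKAP12, a scaffold that holds PKA near receptors, had 89.7, 101 and 87.8 CPM in TFCP2L1 libraries, against 52.8, 54.0 and 56.8 CPM in vector libraries (log2 fold change 0.77, SE 0.08). The PKA inhibitor genes split: PKIA was called higher at 0.27 (SE 0.08) and PKIG lower at -0.38 (SE 0.11). PKIA lost its call without TFCP2L1 replicate 2 or vector replicate 1 or 3, and PKIG without each library except TFCP2L1 replicate 2 (edgeR adjusted p up to 0.155 and 0.183).

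In the CREB family and its coactivators, 3 of 16 tested genes were called, all higher, with a median log2 fold change of 0.08. Of all tested genes 11.6% were called, and 4.63% were called higher. CREB5 had 36.8, 39.6 and 42.8 CPM in TFCP2L1 libraries, against 18.4, 26.7 and 22.1 CPM in vector libraries (log2 fold change 0.83, SE 0.12). CREM, which includes activating and repressing forms that gene counts do not separate, had 64.6, 66.2 and 61.5 CPM in TFCP2L1 libraries, against 43.4, 43.2 and 44.2 CPM in vector libraries (log2 fold change 0.56, SE 0.08). Neither gene overlapped between groups, while CREB1 beside them was level. PPP1CC, a catalytic subunit of protein phosphatase 1, was called at 0.23 (SE 0.07), and lost the call without each library except TFCP2L1 replicate 1 (edgeR adjusted p up to 0.189).

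Transcripts known to be induced through cyclic AMP did not move together: 3 were called higher and 3 lower of 19 tested, with a median log2 fold change of -0.11. PDE4D is counted in this list too. CREM and RGS2 were among the higher, with STC1, the hormone stanniocalcin 1, named after its value was seen (log2 fold change 0.43, SE 0.09). IL6, a cytokine gene that cyclic AMP and many inflammatory signals induce, had 92.4, 92.8 and 132 CPM in TFCP2L1 libraries, against 293, 385 and 278 CPM in vector libraries (log2 fold change -1.59, SE 0.18). CITED2, whose product binds the coactivators CBP and EP300, averaged 60.5 CPM in TFCP2L1 cells and 111 CPM in vector cells (log2 fold change -0.88, SE 0.08). DUSP1, a phosphatase of MAP kinases, was at -0.56 (SE 0.10). STC1 lost its call without vector replicate 1 or 3 (edgeR adjusted p 0.0571 and 0.0553).

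Of 16 tested channels, EPAC effectors and exporters, 1 was called, lower, with a median log2 fold change of -0.03. That gene was HCN2, a cation channel opened by hyperpolarisation and cyclic AMP, with 20.2, 20.7 and 17.6 CPM in TFCP2L1 libraries, against 27.3, 26.8 and 25.5 CPM in vector libraries (log2 fold change -0.45, SE 0.10). Without vector replicate 1 its edgeR adjusted p was 0.0510. RAPGEF2, another RAP1 exchange factor, was at -0.26 (SE 0.08) and missed the call (edgeR adjusted p 0.0526).

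Of 6 tested genes with phosphodiesterase activity or names outside the set, 2 were called, both higher, with a median log2 fold change of 0.01. ENPP1, an ectoenzyme that hydrolyses ATP and cyclic GMP-AMP outside the cell, had 6.89, 6.96 and 7.83 CPM in TFCP2L1 libraries, against 4.70, 3.69 and 4.59 CPM in vector libraries (log2 fold change 0.74, SE 0.16). CNP, whose product cleaves 2′,3′-cyclic nucleotides, was at 0.28 (SE 0.08) and lost its call without each library except TFCP2L1 replicate 2 (edgeR adjusted p 0.0644 to 0.152).

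**Figure D5:**
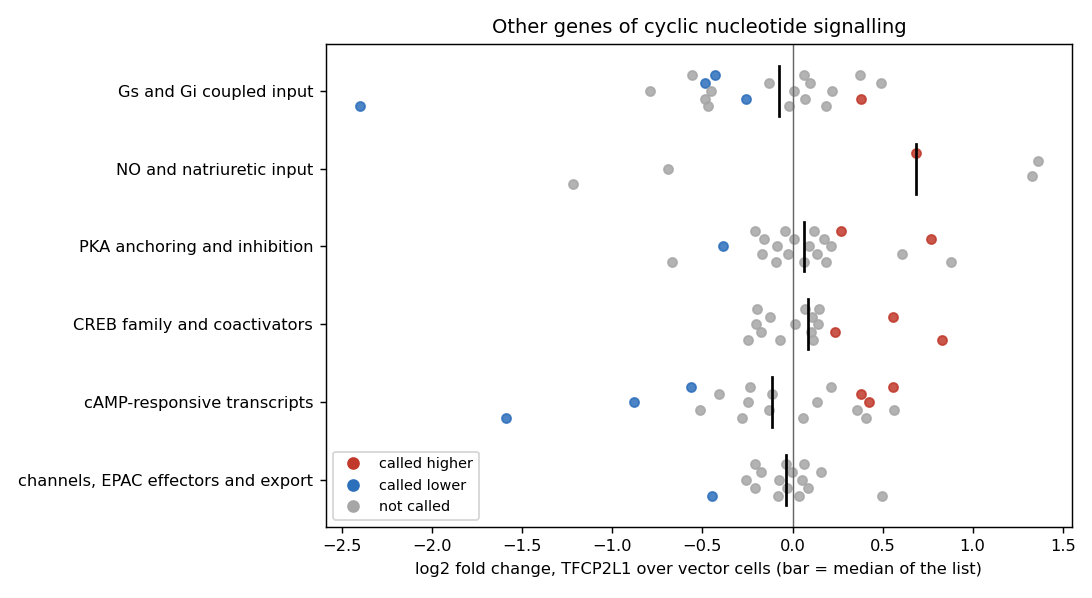
Log2 fold change of TFCP2L1 over vector cells (horizontal axis) for the tested genes of 6 pathway lists, with a bar at each list's median. PTGIR lies farthest to the left at -2.40, IL6 at -1.59, and CREB5, AKAP12 and NPR2 are called higher.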

How the data were processed

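The authors deposited raw read counts for 21173 genes and FPKM values of the same genes. Per the submitters' processing notes, fastp, HISAT2 and HTSeq were used with GRCh38.p13. Per the labels' protocols, total RNA came from TRIzol extraction and libraries from a VAHTS kit. The deposited FPKM equal count over gene length and library total for all genes within 0.01%, so they are no independent measurement and here only compare genes.

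Counts were tested with edgeR 4.0.16 (R 4.3.3): filterByExpr, TMM, quasi-likelihood F-test, two-sided, Benjamini-Hochberg adjustment over 14431 genes. The script was checked on simulated data. Each SE was obtained as log2 fold change over the square root of F. Intervals are exact and cover counting error only. Alternatives used DESeq2 1.42.0, limma 3.58.1, other scalings and filters, a replicate block and each library left out. Replicate libraries differed by more than sampling noise. Positions are from GENCODE v29 and promoter sequences from RefSeq (GRCh38.p14).

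The members and lists were chosen with earlier results of these data known. Named were TFCP2L1, all members found, and of each list the called genes with the 3 largest changes, with lists of under 2 calls represented by their 2 lowest p-values. Genes named beyond that are marked, apart from the cell type markers, which were not held to this rule.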

Additional observations from a re-analysis of the deposited data

How the results depend on the processing

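PDE2A, ADCY1 and PDE10A kept direction and call in all 16 alternative settings, with log2 fold changes of 1.68 to 2.16, 0.53 to 0.82 and -0.79 to -0.46. Members called higher stayed at 2 without any 1 library and were 3 with no filter, where PRKAR2B was added. Members called lower were 3, with 1 to 3 without 1 library each. The 3 without TFCP2L1 replicate 1 were PDE10A, PDE6D and ADCY6, as PDE4A lost its call there. With TFCP2L1 replicate 3 and vector replicate 2 both left out, 1 member was called lower. That alternative was chosen after seeing the data because these libraries had the highest mitochondrial shares. Genes called in all came to 1670, with 934 to 1872 without 1 library each. PDE4A also lost its call on FPKM with pseudocounts of 1 and 0.1 (limma adjusted p 0.0575 and 0.0684). The cause of these losses was not tested. With the replicate number as a block, 977 genes and 1 lower member were called, and the 2 higher members remained PDE2A and ADCY1. PDE4A (edgeR adjusted p 0.0935) and PDE6D (0.0728) were not called in that fit. Deviations from the group mean correlated between same-numbered libraries at 0.29, -0.44 and -0.37 for numbers 1, 2 and 3. Same-numbered libraries were thus not alike throughout. With 3 libraries per group this cannot decide whether the numbers mark pairs. Across numbers, TFCP2L1 replicate 3 correlated with vector replicate 2 at 0.60 and TFCP2L1 replicate 2 with vector replicate 3 at 0.40. No called member and none of the 22 called genes among the 24 others followed changed sign. Of members not called, RAPGEF3 changed sign in 5 settings, CREB1 in 4, RAPGEF4 in 3, ADCY7 in 2, and PDE4C, PDE5A, GUCY1A2 and PRKAR1B in 1 each. Of those 22, 11 lost the call without some single library; besides those named above this was CAHM, a neighbour of PDE10A (log2 fold change -2.04, SE 0.55, edgeR adjusted p up to 0.0998). PTGIR and ENPP1 lost theirs only without the 2 libraries together (edgeR adjusted p 0.0615 and 0.0673). Every scaling moved the median of all genes by less than 0.1 on the log2 scale. The split of calls by direction did move. In the fit used above 668 genes were called higher and 1002 lower. With library totals in place of TMM these were 884 and 903, and without vector replicate 1 they were 298 and 645. Depth limits what can be said of the 7 members under the filter and of PDE3A, PDE4C, GUCY1A1 and RAPGEF4.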
